A study of Mus musculus with 4 samples.

Results

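The genes described here are those whose level in lung fibroblasts of postnatal day 7 (P7) mice stood apart from 3 other ages: E16.5 and E18.5 (days of embryonic life) and postnatal day 28 (P28). The cells were sorted from whole lungs for Pdgfra, a receptor for platelet-derived growth factors on mesenchymal cells, and came from wild-type (WT) C57BL6 mice, with 1 RNA-seq library per age and no transgene or treatment named for any group. A gene was counted as P7-high where the P7 library lay at least 2-fold above each of the other 3 on log2(scaled FPKM + 1) and at 5 scaled FPKM or more, and as P7-low where it lay at least 2-fold below each of them and each of them was at 5 or more. Scaled FPKM is the deposited FPKM (fragment counts corrected for transcript length and library total) divided by a factor per library. By this rule 280 of 23444 gene symbols were chosen, 215 P7-high and 65 P7-low.

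With 1 library per age there is no spread between animals, so every value below is a difference between libraries and no test was run. Since the rule used these values, the levels of the chosen genes are a description. Read totals are not kept by FPKM. From the spacing of low values, the depth of P7 was estimated at about 1.05 times that of E16.5, 1.48 times that of E18.5 and 1.09 times that of P28. Each figure is the commonest ratio among genes low in both libraries. That ratio was held by 58 of 1044 genes for E16.5, 26 of 960 for E18.5 and 31 of 1027 for P28, so the estimates are rough. The labels give neither the sex of the mice nor how many were pooled. Fewer cells of a type and less RNA per cell cannot be told apart in these libraries.

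Around P7 the mouse lung is in its phase of alveolar septation, in which myofibroblasts that make elastin and contractile protein form the crests of new septa while the capillary bed beneath them grows and is remodelled. Pdgfra marks the myofibroblast and lipofibroblast precursors of this phase. Capillary endothelial cells lie directly against these fibroblasts and carry their own receptors for vascular growth factors. P28 falls near the end of this phase, and both fetal ages precede it.

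The same rule was applied to each library in turn, over the 7250 genes at 5 scaled FPKM or more in at least 1 library. At P7 2.97% of these genes were P7-high and 0.897% were P7-low. The shares standing at least 2-fold above all others were 3.35% at E16.5 (243 genes), 2.65% at E18.5 (192) and 8.46% at P28 (613). The shares standing at least 2-fold below all others were 1.35% at E16.5 (98 genes), 1.02% at E18.5 (74) and 2.12% at P28 (154). Set against E16.5 alone, P7 was past the 2-fold threshold upwards for 10.4% of genes and downwards for 8.18%. Against E18.5 these shares were 12.5% and 10.2%, and against P28 they were 9.02% and 12.9%. The P7 library thus did not hold more genes standing apart from all others than the first or the last age.

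**Figure D1:**
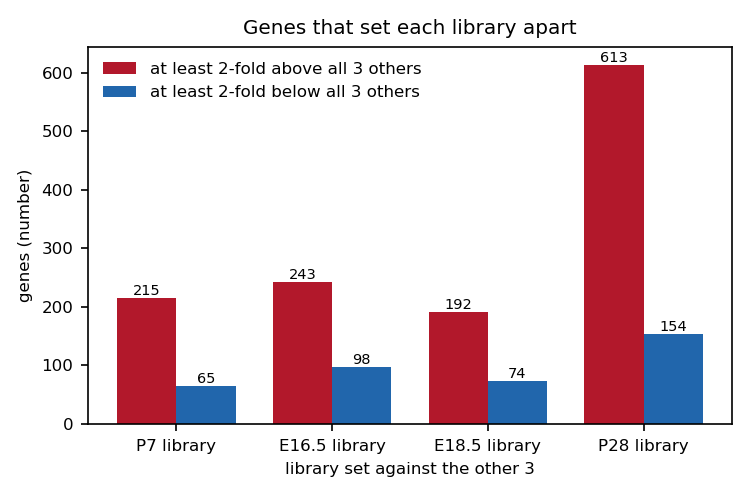
Number of genes (vertical axis) at least 2-fold above (red) or below (blue) all 3 other libraries, for each library in turn (horizontal axis), on log2(scaled FPKM + 1). P7 has 215 genes above and 65 below, P28 has 613 and 154.

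The P7-high genes had a median of 20.8 scaled FPKM at P7, against 1.76 at E16.5, 2.11 at E18.5 and 5.35 at P28. The median difference to the nearest other age was 1.43 on the log2 scale, or 2.70-fold. P28 was the nearest age for 150 of the 215, E18.5 for 36 and E16.5 for 29, and P28 itself lay at least 2-fold above both fetal ages for 78 of them. Of the 215, 11 were below 1 scaled FPKM in all 3 other libraries, and 28 lay at least 4-fold above the nearest age. The P7-low genes had a median of 3.97 scaled FPKM at P7, against 18.4 at E16.5, 29.1 at E18.5 and 20.8 at P28, with a median log2 difference of -1.41 to the nearest age.

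The label of the sort was checked against fibroblast genes. Pdgfra (GRCm38 chromosome 5, 75152292 to 75198215, plus strand) was at 82.0 scaled FPKM at P7, against 77.3 at E16.5, 165 at E18.5 and 174 at P28. The P7 library was therefore near the lower end of the range for the sorted receptor. Of 18 general fibroblast genes, 1 was P7-high and 2 were P7-low, and the list summed to 3336 scaled FPKM at P7, against 2319 at E16.5, 3328 at E18.5 and 7760 at P28. Fibroblast genes were thus abundant at P7, and their sum was lower there than at P28.

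Endothelial genes made up the most numerous named group among the P7-high genes. Of 96 genes on 5 endothelial lists that reached 5 scaled FPKM in some library, 53 were P7-high and 0 were P7-low. The 114 genes of these lists that are in the table summed to 4450 scaled FPKM at P7, against 616 at E16.5, 953 at E18.5 and 3440 at P28. The sum was 7.23 times that of E16.5, 4.67 times that of E18.5 and 1.29 times that of P28. A single gene of the aerocyte list, Igfbp7, held 1041 of the P28 sum and 302 of the P7 sum. The pan-endothelial list alone summed to 3140 at P7, against 203 at E16.5, 341 at E18.5 and 1610 at P28. On the list of pan-endothelial genes 41 of 61 were P7-high, and 11 of the 61 reached 5 only at P7, so that they had to stand high there to be counted at all. The list of general capillary cells held 9 of 13, the aerocyte list 3 of 13, the artery and vein list 5 of 12 and the lymphatic list 2 of 6. Of the 12 artery and vein genes 3 reached 5 only at P7, Gja4 and Sox17 among them, and so did 1 of the 13 general capillary genes. Over the pan-endothelial list the median log2 difference of P7 was 3.79 to E16.5, 2.92 to E18.5 and 1.40 to P28, where all 7250 genes had medians of -0.02, 0.04 and 0.02 in the same order of ages. These lists were drawn up for a cell type other than the sorted one, but their genes are not exclusive to it. Cd34 is also on the list of adventitial fibroblast genes. Efnb2, Apln and Cxcl12 are also on the list of vascular growth factors from stroma. The part of endothelial cells in the P7-high genes that are on no list was not tested.

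Among adhesion genes, Cdh5, the cadherin of endothelial junctions (GRCm38 chromosome 8, 104101625 to 104144511, plus strand), was at 200.1 scaled FPKM at P7, against 4.36 at E16.5, 9.97 at E18.5 and 62.4 at P28. Pecam1, an adhesion molecule of endothelial and blood cells, was at 93.0 at P7, against 3.00 at E16.5, 11.5 at E18.5 and 30.9 at P28. Cldn5, a tight junction claudin, was at 35.8 at P7, against 0.783 at E16.5, 2.55 at E18.5 and 14.0 at P28. In all 3 the fetal libraries were lowest and P28 was intermediate. Emcn, an endothelial sialomucin, was at 46.8 at P7, against 1.58 at E16.5, 5.55 at E18.5 and 11.8 at P28. Gja4, the gap junction protein connexin 37 of arteries, was at 20.1 at P7, against 0.342 at E16.5, 0.158 at E18.5 and 3.00 at P28. In all 5 genes P28 was next after P7, which the rule sets highest.

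There were 9 receptor tyrosine kinases among the P7-high genes, and 7 of them are on an endothelial list. Roles here and below were given to members only, after their values were seen. The role counts therefore have no share over all genes beside them and do not show enrichment. In the 5 kinases given first here, P28 was again next after P7. Kdr, the main receptor for vascular endothelial growth factor A, was at 49.9 scaled FPKM at P7, against 1.14 at E16.5, 3.00 at E18.5 and 21.9 at P28. Tek, the angiopoietin receptor, was at 40.6 at P7, against 1.73 at E16.5, 4.95 at E18.5 and 13.2 at P28, and its partner Tie1 was at 28.3 at P7, against 0.710 at E16.5, 1.32 at E18.5 and 6.94 at P28. Flt4, the receptor for vascular endothelial growth factor C, was at 16.3 at P7, against 0.438 at E16.5, 1.68 at E18.5 and 6.97 at P28. Kit, the stem cell factor receptor, which general capillary cells carry, was at 30.5 at P7, against 2.71 at E16.5, 0.884 at E18.5 and 7.76 at P28. Ntrk2 and Ntrk3, neurotrophin receptors on no endothelial list, were lower, at 8.29 and 8.61 at P7.

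G protein-coupled receptors numbered 14 among the P7-high genes and 1 among the P7-low genes. Aplnr, the apelin receptor (GRCm38 chromosome 2, 85136225 to 85139923, plus strand), was at 45.8 scaled FPKM at P7, against 1.76 at E16.5, 1.61 at E18.5 and 5.21 at P28, a log2 difference of 2.91 to the nearest age. Its ligand gene Apln was at 14.4 at P7, against 1.05 at E16.5, 1.68 at E18.5 and 5.35 at P28. For receptor and ligand alike P28 was next after P7, while P7 being highest was fixed by the rule. Calcrl, the calcitonin receptor-like receptor, was at 198 at P7, against 4.59 at E16.5, 9.70 at E18.5 and 57.0 at P28, and Ramp2, the protein that makes it an adrenomedullin receptor, was at 108 at P7, against 9.90 at E16.5, 13.4 at E18.5 and 37.4 at P28. Glp1r, the glucagon-like peptide 1 receptor, was at 72.7 at P7, against 0.840 at E16.5, 0.785 at E18.5 and 14.9 at P28. In each of these the gap to the fetal libraries was wider than the gap to P28.

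Transcription factors and cofactors numbered 19 among the 215 P7-high genes, 5 of them on an endothelial list, and 9 among the 65 P7-low genes. Sox17, of the endothelial SoxF group, was at 11.4 scaled FPKM at P7, against 0.239 at E16.5, 0.931 at E18.5 and 1.26 at P28. The other SoxF genes were P7-high too, with Sox18 at 42.1 at P7, against 0.686 at E16.5, 1.90 at E18.5 and 11.6 at P28, and Sox7 at 20.3 at P7, against 0.500 at E16.5, 1.05 at E18.5 and 6.02 at P28. All 3 were lowest at E16.5. The ETS factor Erg was at 33.7 at P7, against 7.24 at E16.5, 8.62 at E18.5 and 6.45 at P28, and its relative Fli1 was at 22.9 at P7, against 6.41 at E16.5, 5.20 at E18.5 and 4.60 at P28. Both ETS genes differ from the junction genes in that P28 was below both fetal levels. Ahr, the aryl hydrocarbon receptor, was at 41.3 at P7, against 3.86 at E16.5, 2.13 at E18.5 and 6.01 at P28. Foxf1, a mesenchymal and endothelial factor of the lung, was at 91.3 at P7, against 30.05 at E16.5, 30.02 at E18.5 and 15.4 at P28.

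Notch pathway genes and guidance molecules were partly P7-high. Of all 7250 tested genes 2.97% were P7-high, the share to set beside the list counts here. Notch4, Dll4, Efnb2, Robo4 and Eng, all P7-high, are also on an endothelial list, so they were already counted among the 53 genes above. Of 9 Notch genes 4 were P7-high, but these same 4 reached 5 only at P7. They were thus counted at all only through the P7 library, and none of the other Notch genes was P7-high. Mfng, a glycosyltransferase that modifies Notch receptors, was at 15.1 scaled FPKM at P7, against 1.07 at E16.5, 0.524 at E18.5 and 3.11 at P28. The others were Nrarp, Notch4 and Dll4, with 6.08 to 6.96 at P7, the feedback regulator Nrarp being at 0.641 at E16.5, 0.0673 at E18.5 and 0.809 at P28. Of 28 guidance genes 7 were P7-high, and 4 of the 28, Unc5b included, reached 5 only at P7. Among the 7 were Efnb2, the arterial ephrin, at 45.8 at P7, against 7.25 at E16.5, 8.86 at E18.5 and 13.1 at P28, and Unc5b, a netrin receptor, at 11.7 at P7, against 1.76 at E16.5, 2.11 at E18.5 and 1.63 at P28. Of 28 genes of the TGF-beta and BMP pathway 3 were P7-high, namely the co-receptor Eng, the inhibitory Smad6 and the ligand Tgfb2, which was at 30.6 at P7, against 10.7 at E16.5, 12.3 at E18.5 and 6.54 at P28. Integrins gave 2 of 11, with 1 that reached 5 only at P7, Itga2, a collagen receptor chain, at 11.3 at P7, against 1.54 at E16.5, 1.66 at E18.5 and 1.73 at P28.

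Signalling enzymes, channels and secreted factors were also among the P7-high genes. There were 12 regulators of small GTPases, led by Rasgrp3, an exchange factor for Ras, at 69.1 scaled FPKM at P7, against 1.94 at E16.5, 4.19 at E18.5 and 14.0 at P28. The 4 GIMAP genes, GTPases best known from lymphocytes, lay between 10.2 and 44.9 at P7, with Gimap4 at 41.8 at P7, against 1.43 at E16.5, 2.63 at E18.5 and 10.9 at P28. The 4 channel genes were led by Scn7a, a sodium channel, at 173 at P7, against 3.38 at E16.5, 19.2 at E18.5 and 75.0 at P28. P28 was next after P7 in Rasgrp3, Gimap4 and Scn7a. Cxcl12, a chemokine, was at 49.8 at P7, against 16.4 at E16.5, 10.7 at E18.5 and 21.1 at P28, and Ackr3, which binds and removes it, was at 18.8 at P7, against 1.33 at E16.5, 2.44 at E18.5 and 4.63 at P28. Pdgfb, a ligand that endothelial cells send to pericytes, was at 13.0 at P7, against 0.294 at E16.5, 1.18 at E18.5 and 3.99 at P28. Of 12 pericyte genes 2 were P7-high, Mcam and Cox4i2, and Cox4i2 reached 5 only at P7.

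The genes of peptide and lipid signals given next were chosen after their values were seen, and such genes were found on both sides of the rule. Ace, the angiotensin-converting enzyme, was at 82.3 scaled FPKM at P7, against 0.577 at E16.5, 4.96 at E18.5 and 33.8 at P28. Prcp, a carboxypeptidase that cleaves angiotensin, was at 45.6 at P7, against 9.05 at E16.5, 7.01 at E18.5 and 8.93 at P28, nearly level outside P7. Hpgd, which inactivates prostaglandins, was at 177 at P7, against 6.19 at E16.5, 2.65 at E18.5 and 65.8 at P28. For sphingosine 1-phosphate, the transporter Spns2 was at 21.4 at P7, against 0.322 at E16.5, 0.511 at E18.5 and 3.95 at P28. The receptor S1pr1 was at 69.8 at P7, against 2.81 at E16.5, 3.52 at E18.5 and 28.2 at P28, whereas the receptor S1pr3 was P7-low, at 2.03 at P7, against 13.0 at E16.5, 26.7 at E18.5 and 11.9 at P28. S1pr1 and S1pr3 thus stood on opposite sides at P7, and other receptors of this lipid are not given here.

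**Figure D2:**
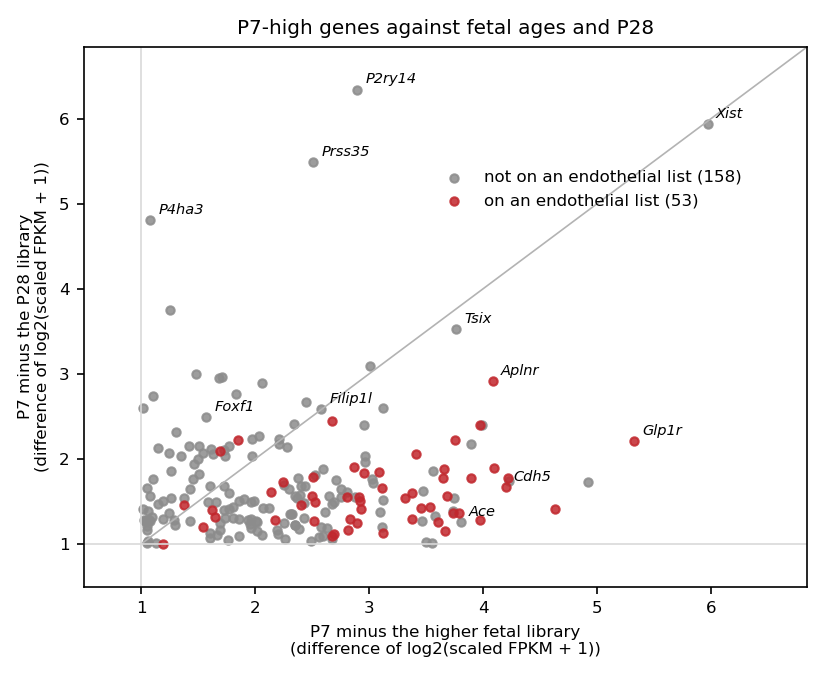
Each point is a P7-high gene, placed by the difference of P7 to the higher fetal library (horizontal axis) and to the P28 library (vertical axis), both on log2(scaled FPKM + 1); 4 small RNA genes are left out. The 53 endothelial-list genes (red) lie mostly right of the diagonal, and P2ry14, Prss35 and P4ha3 stand high on the left.

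P28 was the nearest age for 50 of 53 endothelial-list genes and for 100 of the other 162. P28 lay at least 2-fold above both fetal ages for 38 of the 53 and for 40 of the 162. The median fold of P7 was 15.3 against E16.5, 7.74 against E18.5 and 2.91 against P28 in the endothelial-list genes, and 5.09, 4.78 and 2.92 in the same order of ages in the others. The median folds against P28 were thus alike in both sets, and those against the fetal ages were larger in the endothelial-list genes, a difference that was not tested. The rule put the same lower bound on these folds in both sets, and P28 was mostly the nearest age. No conclusion is drawn from the likeness against P28. Some of the 162 are known in endothelium but stand on no list, for example Bcl6b, Thsd1 and Pcdh12, so the 162 are not free of such genes.

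By the rule every P7-high gene had its peak at P7. In 7 of them P28 also lay at least 2-fold below both fetal ages. P2ry14, a receptor for UDP-sugars (GRCm38 chromosome 3, 59113855 to 59153618, minus strand), was at 142 scaled FPKM at P7, against 14.7 at E16.5, 18.2 at E18.5 and 0.762 at P28. Prss35, an inactive serine protease, was at 75.6 at P7, against 11.9 at E16.5, 12.4 at E18.5 and 0.712 at P28. P4ha3, a collagen prolyl hydroxylase subunit, was at 88.3 at P7, against 41.3 at E16.5, 39.8 at E18.5 and 2.20 at P28. In each of them P28 was the lowest library by far. The others were Aard, D8Ertd82e, Chn1 and Sema6d, with 20.96 to 62.7 at P7 and 1.42 to 9.52 at P28.

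Few myofibroblast and contractile genes were P7-high, but so were few of all 7250 tested genes (2.97%). Of 18 alveolar myofibroblast genes 3 were P7-high, P2ry14, Aspn and Mustn1, a larger share than 2.97%. Aspn, a small leucine-rich proteoglycan, was at 21.8 scaled FPKM at P7, against 2.76 at E16.5, 7.53 at E18.5 and 4.11 at P28. Tgfbi, the most abundant member at P7, was at 340 at P7, against 187 at E16.5, 541 at E18.5 and 12.3 at P28, so that its highest level was at E18.5. Of 15 contractile genes 1 was P7-high, the caldesmon gene Cald1, at 181 at P7, against 69.4 at E16.5, 68.6 at E18.5 and 61.4 at P28. Filip1l, a regulator linked to the actin cytoskeleton, was at 168 at P7, against 27.2 at E16.5, 13.2 at E18.5 and 27.2 at P28. Acta2, the smooth muscle actin, was at 156 at P7, against 146 at E16.5, 68.0 at E18.5 and 9.22 at P28, a difference over P28 and E18.5 but not over E16.5. Of 21 elastic fibre genes 1 was P7-high, Fbln2, and 1 was P7-low, Lox, the elastin and collagen crosslinking enzyme, at 11.4 at P7, against 81.7 at E16.5, 134 at E18.5 and 32.0 at P28.

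**Figure D3:**
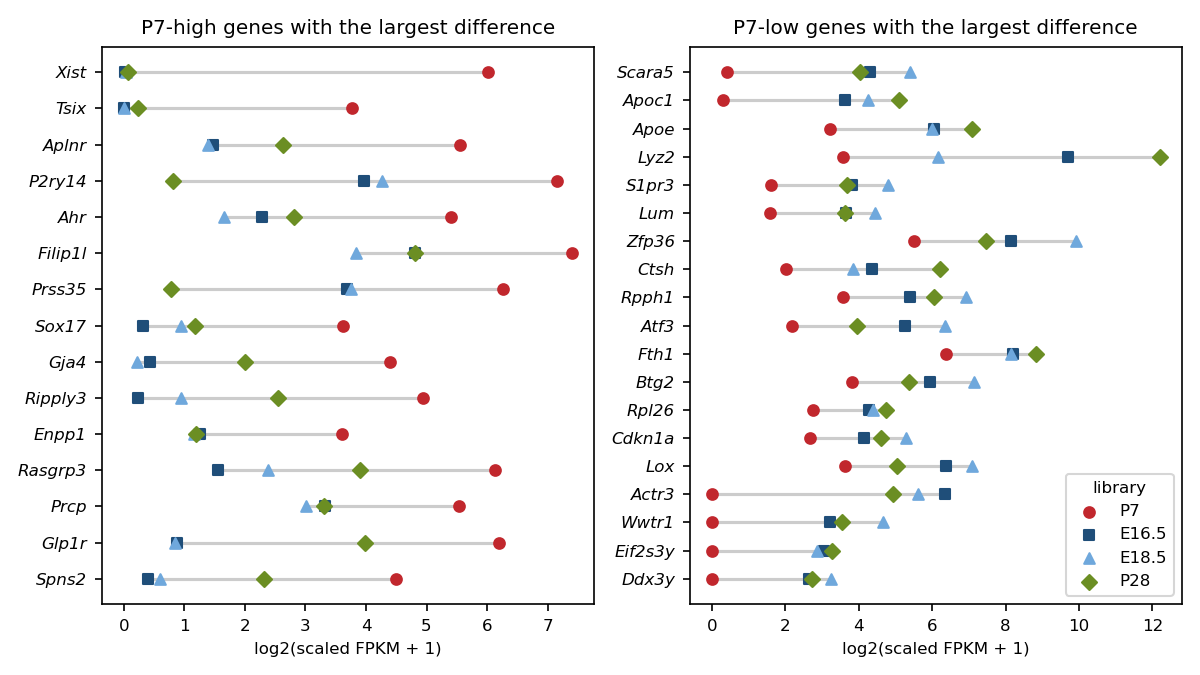
Level of each gene on log2(scaled FPKM + 1) in the 4 libraries (horizontal axis), for the 15 P7-high genes (left) and the 15 P7-low genes (right) with the largest difference to the nearest other age, predicted genes and small RNAs passed over; the 4 lowest rows on the right are P7-low genes listed at 0 at P7. Grey lines span the 4 libraries. By the rule the red P7 points lie at the right end on the left panel and at the left end on the right panel.

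Genes of cell division gave none in either direction, and P7 lay below E16.5 and above the other ages in the list medians. Of 30 mitosis genes and 25 DNA replication genes, 0 were P7-high and 0 P7-low. The median log2 difference of P7 over the mitosis genes was -0.65 to E16.5, 1.55 to E18.5 and 2.10 to P28. Of 14 genes for G1 cyclins and CDK inhibitors, the cyclin genes Ccnd1 and Ccnd2 were P7-high, with Ccnd1 at 37.7 scaled FPKM at P7, against 5.40 at E16.5, 5.06 at E18.5 and 17.2 at P28, and Ccnd2 at 30.3 at P7, against 12.1 at E16.5, 11.2 at E18.5 and 9.74 at P28. Cdkn1a, which encodes the inhibitor p21, was P7-low, at 5.38 at P7, against 16.7 at E16.5, 37.8 at E18.5 and 23.3 at P28.

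**Figure D4:**
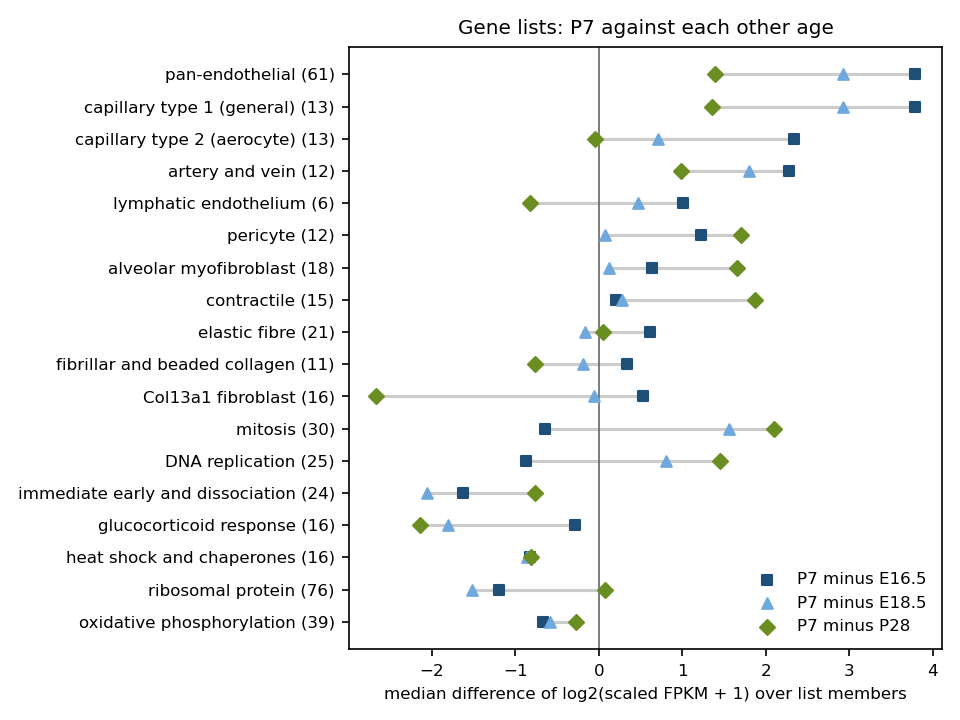
Median difference of the P7 library to each other library on log2(scaled FPKM + 1) (horizontal axis) for 18 gene lists (rows, with the number of genes at 5 or more in any library). The pan-endothelial list stands at 3.79, 2.92 and 1.40, and the immediate early list lies below 0 against all 3 ages.

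Of 24 immediate early and dissociation genes, which respond within minutes to stimuli and to the handling of cells, 7 were P7-low, 0 were P7-high and 15 had their lowest value at P7. Of all 7250 tested genes 1432 were lowest at P7, ties included (19.8%). Zfp36, an RNA-binding protein that destabilises cytokine mRNA, was at 44.4 scaled FPKM at P7, against 283 at E16.5, 972 at E18.5 and 175 at P28. Atf3 was at 3.53 at P7, against 37.5 at E16.5, 79.8 at E18.5 and 14.5 at P28, and Fos was at 28.9 at P7, against 137 at E16.5, 78.7 at E18.5 and 109 at P28. All 3 are P7-low, so P7 was lowest by the rule, while the highest library was E18.5 for Zfp36 and Atf3 and E16.5 for Fos. Klf4, also on the list, went the other way, at 55.2 at P7, against 13.2 at E16.5, 13.3 at E18.5 and 38.1 at P28. These genes also respond to tissue handling and dissociation, and how long the cells of each age were handled is not in the labels, so age and handling cannot be told apart.

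Of 16 glucocorticoid response genes 4 were P7-low and 1, Sgk1, was P7-high. Mt1, a metallothionein, was at 0.197 scaled FPKM at P7, against 8.60 at E16.5, 105 at E18.5 and 16.9 at P28, and Fkbp5, a chaperone of the glucocorticoid receptor, was at 1.15 at P7, against 7.48 at E16.5, 18.0 at E18.5 and 6.30 at P28. Both were highest at E18.5. Of 76 ribosomal protein genes 4 were P7-low and 33 had their lowest value at P7, against 19.8% of all tested genes. Rpl26 was at 5.74 at P7, against 18.4 at E16.5, 19.98 at E18.5 and 25.8 at P28. The median log2 difference of P7 over the 76 genes was -1.19 to E16.5, -1.52 to E18.5 and 0.08 to P28. By its medians the list was thus low against the fetal ages and not against P28. Ribosomal protein genes have many near-identical copies, so the split of their reads is uncertain. Of 16 heat shock genes 2 were P7-low, Hspa1a and Hsph1, and 11 had their lowest value at P7, also against 19.8% of all tested genes. Fth1, the ferritin heavy chain, was at 82.4 at P7, against 294 at E16.5, 282 at E18.5 and 455 at P28. Slc2a1, a glucose transporter, was at 2.07 at P7, against 19.8 at E16.5, 39.3 at E18.5 and 6.55 at P28. Cebpb, a transcription factor of inflammation and fat cell formation, was at 1.78 at P7, against 8.21 at E16.5, 13.4 at E18.5 and 6.93 at P28. Among secreted Wnt genes, Wnt2 was at 2.56 at P7, against 7.60 at E16.5, 6.81 at E18.5 and 6.29 at P28, and the antagonist Sfrp1 was at 2.10 at P7, against 7.13 at E16.5, 10.38 at E18.5 and 10.36 at P28. Among these P7-low genes, for which the rule sets P7 lowest, the highest library varied.

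Among matrix and surface genes, Scara5, a ferritin receptor of adventitial fibroblasts (GRCm38 chromosome 14, 65666403 to 65764826, plus strand), was at 0.332 scaled FPKM at P7, against 18.7 at E16.5, 41.4 at E18.5 and 15.3 at P28. The proteoglycan Lum was at 2.01 at P7, against 11.5 at E16.5, 20.6 at E18.5 and 11.4 at P28, and its relative Dcn was at 25.6 at P7, against 55.1 at E16.5, 62.3 at E18.5 and 323 at P28. All 3 are P7-low, so P7 was their lowest library by the rule. Lyz2, the lysozyme of macrophages and alveolar type 2 cells, was at 10.9 at P7, against 833 at E16.5, 69.8 at E18.5 and 4692 at P28, and Apoe, a lipid carrier, was at 8.26 at P7, against 65.0 at E16.5, 62.7 at E18.5 and 134 at P28. The leukocyte list as a whole summed to 23.8 at P7, against 1893 at E16.5, 205 at E18.5 and 5238 at P28, and Lyz2 held most of the P28 sum. Ptprc, which marks leukocytes in general, was at 0.202 at P7, against 13.5 at E16.5, 0.923 at E18.5 and 0.0911 at P28. The alveolar type 2 list, which holds the lysozyme gene Lyz1 but not Lyz2, summed to 39.7 at P7, against 55.2 at E16.5, 247 at E18.5 and 12748 at P28. The part of RNA from such cells in Lyz2 and Apoe was not tested.

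Genes on the sex chromosomes set the P7 library apart. Xist, a long RNA needed to silence an X chromosome in females (minus strand, 103460366 to 103483254 of GRCm38 chromosome X), was at 63.4 scaled FPKM at P7, against 0.0103 at E16.5, 0.0271 at E18.5 and 0.0495 at P28. Ddx3y, a Y-linked RNA helicase, was listed at 0 at P7, against 5.24 at E16.5, 8.52 at E18.5 and 5.65 at P28. Eif2s3y, Kdm5d and Uty, also on the Y chromosome, were listed at 0 at P7 and lay between 2.42 and 8.66 in the other 3 libraries. Xist and the Y genes thus split the libraries in the same way, P7 on one side and the other 3 on the other. Tsix, the antisense partner, was at 12.6 at P7, listed at 0 at E16.5 and E18.5, and at 0.175 at P28, but it overlaps Xist and no source used here gives the strand of counting. Age and this difference cannot be told apart. Of 205 P7-high genes with coordinates 5 were on the X chromosome (2.44%), where 3.42% of all tested genes with coordinates were.

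**Figure D5:**
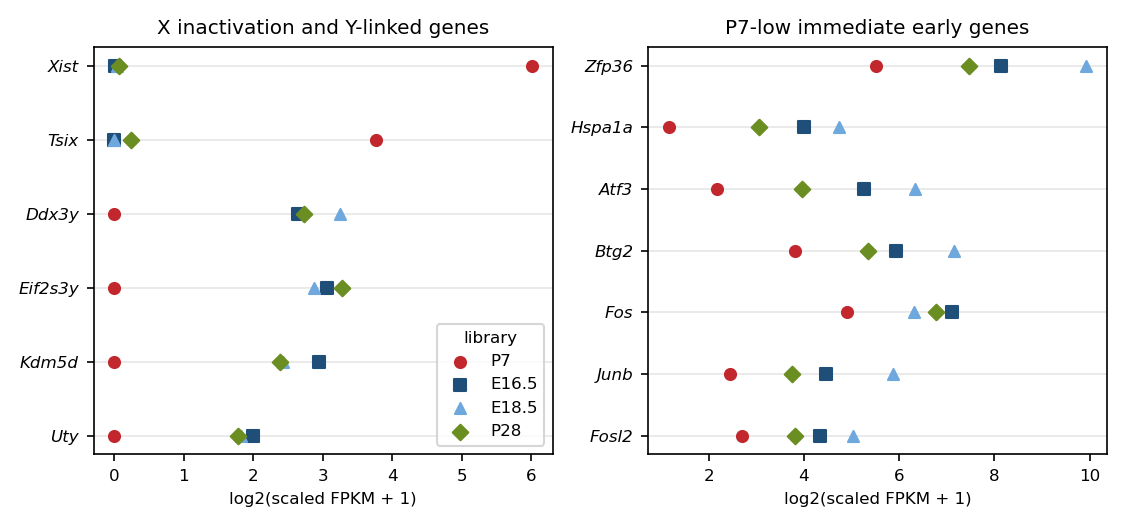
Level on log2(scaled FPKM + 1) in the 4 libraries for Xist, Tsix and 4 Y-linked genes (left) and for the 7 P7-low immediate early genes (right). Xist is at 63.4 scaled FPKM at P7 and the Y-linked genes are listed at 0 there. The P7 point is by the rule the lowest of each immediate early gene.

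There were 4 small RNA entries with a level at P7 and 0 elsewhere, of which 3 are miRNA genes. Mir3066 was at 619 scaled FPKM at P7, Mir218-1 at 54.2 and Mir1931 at 33.7, and the snoRNA Snord35b was at 379, each listed at 0 in the other 3 libraries. FPKM of genes this short, 83 to 119 bases, can rest on few fragments, and the entries lie inside longer genes. Slit2, the gene around Mir218-1, was at 16.5 at P7, against 13.5 at E16.5, 28.3 at E18.5 and 36.6 at P28, and so did not share the pattern. The mature sequences are shown because they tell which miRNAs these entries encode, with the seed, bases 2 to 8, in capitals, from RefSeq on GRCm38.p6, and no seed is shared by 2 of them.
mmu-miR-3066-5p: uUGGUUGCuguagauuaaguag
mmu-miR-3066-3p: cACUUAAUagaccgcaaccugc
mmu-miR-218-5p: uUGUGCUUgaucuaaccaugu
mmu-miR-218-1-3p: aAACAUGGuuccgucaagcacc
mmu-miR-1931: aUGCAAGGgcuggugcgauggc

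The 250 bases before each start site were searched on both strands for 7 letter patterns. The ETS letters, CCGGAA or AGGAAG, were found in 50% of 40 promoters of endothelial-list P7-high genes, in 36.4% of 151 promoters of the other P7-high genes, in 57.4% of 54 promoters of P7-low genes and in 38.2% of all 32851 promoters. The share was thus higher in the P7-low genes than in the endothelial-list genes. Of 30 endothelial-list P7-high genes with 1 promoter 14 held the letters. Leaving out promoters that overlap an annotated exon left 14 genes, of which 4 held them, and none of the 4 with the largest difference at P7, Gja4, She, Efnb2 and Myct1, did. The promoter of Gja4, the first of these, is shown without capitals since no letters matched. The CRE letters TGACGTCA were in 1 of 7 promoters of the P7-low immediate early genes and in 1.55% of all promoters. In the endothelial-list genes the E-box letters CACGTG were in 0% of promoters (all promoters 6.02%) and the AP-1 letters TGACTCA in 0% (4.46%). The CHR letters TTTGAA were in 10% (15.99%), and CC and GG with any 6 bases between in 82.5% (67.1%). That last, loose pattern was also in 80.1% of promoters of the other P7-high genes and 81.5% of those of P7-low genes. Btg2, an antiproliferative gene, was at 13.0 scaled FPKM at P7, against 60.0 at E16.5, 141 at E18.5 and 39.99 at P28. Its promoter is shown because it is the 1 immediate early promoter with the CRE letters, with the match in capitals. Both promoters are on the minus strand of GRCm38.p6, Gja4 at chr4:127314040-127314289 and Btg2 at chr1:134079156-134079405.
Gja4: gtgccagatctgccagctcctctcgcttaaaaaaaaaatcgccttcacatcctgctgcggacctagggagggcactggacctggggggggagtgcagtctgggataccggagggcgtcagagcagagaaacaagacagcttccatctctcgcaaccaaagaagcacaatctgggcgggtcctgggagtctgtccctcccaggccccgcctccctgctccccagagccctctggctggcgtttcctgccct
Btg2: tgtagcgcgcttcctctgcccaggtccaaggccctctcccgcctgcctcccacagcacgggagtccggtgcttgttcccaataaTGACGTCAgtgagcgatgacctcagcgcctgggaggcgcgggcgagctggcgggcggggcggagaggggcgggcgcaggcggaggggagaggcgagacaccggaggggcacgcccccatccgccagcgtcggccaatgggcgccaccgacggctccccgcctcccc

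At the 2-fold threshold, the P7-high genes just inside were Sema3c, Gna12 and Acer2, with log2 differences of 1.01 to the nearest age, and those just outside were 2610507I01Rik, Pxn and Plekhg1, with 0.98 to 0.995. The P7-low genes just inside were Rmrp, 2810428I15Rik and Romo1, with -1.005 to -1.02, and those just outside were Cstb, Gpam and Lars2, with -0.99 to -0.94. Actr3, an actin nucleation subunit, and Wwtr1, the Hippo cofactor TAZ, were listed at 0 at P7 as well, with Actr3 at 80.2 at E16.5, 47.8 at E18.5 and 29.4 at P28. Such a 0 may stand for a missing estimate, in which case the P7 level is unknown.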

How the data were processed

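RNA-seq of sorted Pdgfra-positive lung cells was deposited as 1 table of FPKM for 4 libraries, 1 per age, which the authors made. Per the submitters' processing notes, TopHat and TopHat2 2.0.9 were used with builds GRCm38 and mm10. No source used here names the program behind the FPKM. Per the labels' protocols, cDNA came from the Verso kit and libraries from Nextera XT, read as paired ends. The smallest positive value has a log10 of -256. Values this small come from a model, and an exact 0 may be no estimate. FPKM holds no read totals, so only the relative depth of the libraries was estimated, from the spacing of low values, and no interval is given.

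Of 23931 entries, 745 sharing 258 symbols were summed, which left 23444. FPKM was divided by median-ratio factors over the 7930 genes that reached 1 FPKM in each of the 4 libraries, 1.38 for P7, 1.15 for E16.5, 0.581 for E18.5 and 1.08 for P28. Differences are of log2(scaled FPKM + 1), a pseudocount of 1, which understates changes of low genes. A difference of 1 and a minimum of 5 scaled FPKM on the higher side were needed. No test was run. The code was tested on simulated data.

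The members and all 59 gene lists (1331 entries, 1202 symbols, 1185 in the table) were chosen with earlier results of these data known. The naming rule took Pdgfra, the 15 P7-high and 15 P7-low genes with the largest difference among those at 10 or more, up to 4 genes per list in each direction, the most abundant of each list at P7, up to 6 P7-low genes at 0 at P7 and 3 genes on each side of the threshold. Other genes, the roles, the grouping by P28 course and the printed sequences were chosen after their values were seen. The promoters shown were chosen 3 times. The 4 endothelial-list genes with the largest difference and 1 promoter came first, Gja4, Glp1r, Emcn and Tie1, of which Emcn and Tie1 held ETS letters. Promoters overlapping an exon were then left out, which gave Gja4, She, Efnb2 and Myct1, none with the letters. Tek and Gimap6 were next tried in place of the last 3 in search of examples with the letters; they held none either, and that choice was undone. Sequences are from RefSeq and coordinates from GENCODE M21. Python 3.11.15, numpy 2.4.6, pandas 2.3.3 and matplotlib 3.10.9 were used. Alternatives were other scalings, pseudocounts, minimums and thresholds, leaving out each other library, summed symbols, zeros or genes of other cell types, and, added after seeing the data, predicted genes and small RNAs.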

Additional observations from a re-analysis of the deposited data

How the results depend on the processing

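The 215 P7-high and 65 P7-low genes depended on scaling and thresholds. The counts were 448 and 25 with FPKM as deposited, 131 and 27 with a pseudocount of 5, 110 and 21 with a minimum of 20, and 28 and 14 at a 4-fold threshold. With no minimum the P7-low count was 104, against 255 for P7-high. Leaving out 1 other library gave 280 to 502 P7-high and 100 to 245 P7-low genes: 343 and 186 without the E16.5 replicate, 280 and 100 without E18.5, and 502 and 245 without P28. By construction each comparison with fewer libraries admits more genes. Upper-quartile scaling gave 215 and 62 genes, of which 204 and 61 were shared. Under both scalings, the deposited values and all 3 pseudocounts, 131 P7-high and 17 P7-low genes were called. The 53 endothelial-list genes became 63 as deposited, 42 with a pseudocount of 5, 39 with a minimum of 20, 6 at 4-fold and 77 without P28. The 7 immediate early genes became 5 as deposited, 4 with a pseudocount of 5, 3 with a minimum of 20, 0 at 4-fold and 13 without P28. Of 93 named genes, 0 reversed under any of these alternatives, and of 1273 values 1117 kept their call and 156 lost it. A lower pseudocount, no minimum, or leaving out libraries or genes cannot remove a call by construction. All 156 losses thus came from the other settings. Of the 93 genes, 76 were called as deposited, 89 with upper-quartile scaling and 65 with a pseudocount of 5. With a minimum of 20, 49 were called, and at 4-fold 30. The cause of the shifts was not tested. With 1 library per age, no replicate could be left out within an age. No paired analysis was possible because each age has 1 library. Without read totals, the precision of genes near 5 scaled FPKM is unknown.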
